A study of Mus musculus with 6 samples.

Results

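The vacuolar proton pump (V-ATPase) was followed through 10 of its subunit genes, taken by gene symbol from the 21899 genes of the count table. They were Atp6v0d2, Atp6v0d1, Atp6v0a1, Atp6v0a2, Tcirg1, Atp6v0b and Atp6v0c of the membrane sector (V0) and Atp6v1a, Atp6v1b2 and Atp6v1h of the cytosolic sector (V1). Atp6v0d2 was chosen by its RN and RC counts, which were known to be higher in RN, and the other genes were chosen as its partners in the pump with the same results known. The differences between RN and RC of all 10 genes are therefore given as a description, without p-values.

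The V-ATPase is a rotary pump found on lysosomes, endosomes, secretory granules and synaptic vesicles. Its V1 sector hydrolyses ATP in the cytosol, and the rotation drives protons through the V0 sector into the organelle. In neurons the proton gradient fills synaptic vesicles with transmitter, and in microglia and macrophages it acidifies the compartments in which engulfed material is broken down. Several subunits exist in alternative forms made from separate genes. The a3 form (Tcirg1) and the d2 form (Atp6v0d2) are best known from osteoclasts and macrophages, whereas a1 and d1 are abundant in the brain.

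Thalamus from male wild-type C57BL/6J mice, 8 to 10 weeks old at purchase, was sequenced in bulk, with 3 mice in each group. All mice had received a single dose of 50 Gy to the left thalamic region, an injection of 2 µL of AAV9 into the thalamus 2 weeks afterwards, and tissue removal 6 weeks after irradiation. The RC virus carried GFAP104::tdTomato, a red fluorescent reporter under a promoter directed at astrocytes, and the RN virus carried GFAP104::mND1-tdTomato, which adds mouse NeuroD1. Mice without irradiation or without virus were not analysed here, so the comparison concerns the added NeuroD1 in irradiated tissue.

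Library totals lay between 16561663 and 18657015 counts. Levels are given in CPM, the counts-per-million scale. An expected count of 3, at which an observed 0 would be unlikely, was taken as the floor. It corresponds to between 0.161 and 0.181 CPM. This floor covers counting error only. Neurod1 itself was at 84 to 91 counts in RC against 910 to 1711 in RN, in the direction of the labels, and these counts can include transcripts of the virus. The 5 thalamic markers were present in every mouse, with a summed level of 563 to 1148 CPM in RC and 348 to 733 CPM in RN. On the log2 scale RN was below RC for each of the 5 (median -0.53), though the mice overlapped for each. The 5 hypothalamic markers, Avp, Oxt, Pmch, Hcrt and Agrp, summed to 17.6 to 185.4 CPM in RC and to 210.8 to 361.8 CPM in RN. The 10 choroid plexus markers summed to 323 to 8363 CPM in RC and to 71.2 to 149.3 CPM in RN. The hypothalamic and choroid plexus sums did not overlap between the groups. In bulk tissue, fewer cells of a type and less RNA per cell cannot be told apart. Of the 14956 genes that passed the filter on low counts, edgeR's quasi-likelihood test called 9 higher and 2 lower in RN, taking a gene as called when its Benjamini-Hochberg adjusted p was below 0.05 and the groups differed at least 2-fold. With the replicate number as a block, the test called 17 higher and 5 lower.

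Atp6v0d2 (ENSMUSG00000028238), the d2 form of the subunit that joins the membrane sector to the central stalk, was the member with the largest difference. It was at 8.36, 8.13 and 9.97 CPM in RC replicates 1, 2 and 3 and at 28.1, 33.8 and 31.2 CPM in RN replicates 1, 2 and 3. Every RN mouse was far above every RC mouse, and the spread within each group was small beside the gap between them. The mean level was 8.82 ± 1.00 CPM in RC against 31.0 ± 2.83 CPM in RN (SD, n = 3 mice each), which is 3.52-fold. On the log2 scale the difference was 1.82 (standard error, SE, 0.139), above that of 99.6% of the tested genes. These are the values by which the gene was selected. Atp6v0d2 was the only 1 of the 10 members that met the thresholds of the call, where 0.0602% of all tested genes were called higher, 0.0134% lower and 0.0735% in either direction. It met them in 12 of 13 alternative fits, including each fit that left out a mouse and the fit with the replicate block. These fits reuse the values by which the gene was selected, so they describe it and are no separate support for the difference. The exception was the fit that adjusted for the choroid plexus score (the mean centred log2 CPM of its markers), in which the log2 difference was 1.61 (SE 0.228). In that fit no gene was called higher. The score was 1.74, 3.05 and -0.63 in RC replicates 1, 2 and 3. In RN replicates 1, 2 and 3 it was -1.64, -1.47 and -1.05. As these values did not overlap, the fit cannot tell the score apart from the group. Within RC, the mouse with the most choroid plexus transcripts (replicate 2) and the mouse with the fewest (replicate 3) had 8.13 and 9.97 CPM of Atp6v0d2.

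**Figure D1:**
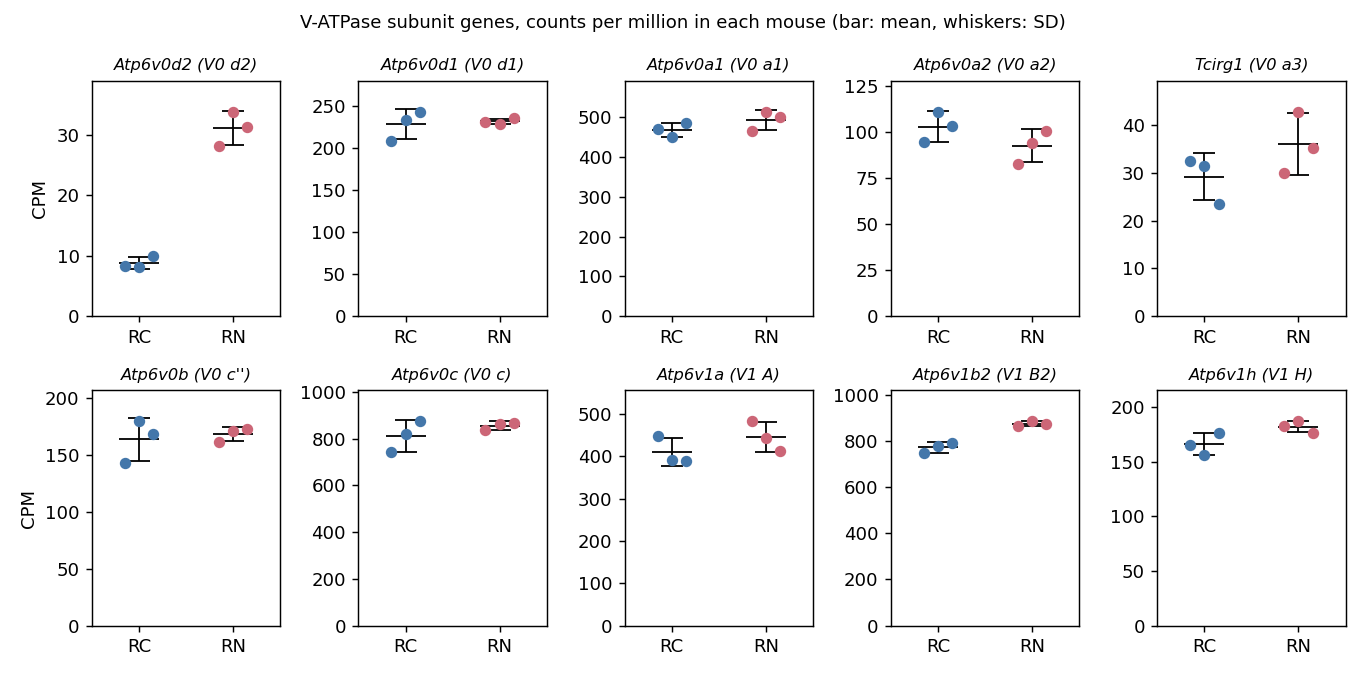
Level in CPM of the 10 members in each of the 3 RC (blue) and 3 RN (red) mice, each axis starting at 0, with the group mean as a bar and the SD as whiskers. Atp6v0d2 lay at 8.13 to 9.97 CPM in RC against 28.1 to 33.8 CPM in RN, while for 7 members the groups overlapped.

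Atp6v0d1 (ENSMUSG00000013160) encodes the d1 form of the same subunit. It was at 208.8, 233.4 and 243.3 CPM in RC against 231.2, 229.2 and 235.4 CPM in RN, so that all RN mice lay within the range of RC. The log2 difference was 0.02 (SE 0.0843), and it was -0.04 without RC replicate 1 and also -0.04 with the choroid plexus covariate. Read against each other within a library, the d genes gave the following shares. Atp6v0d2 supplied 3.85%, 3.36% and 3.94% of the d subunit reads in the 3 RC mice against 10.9%, 12.9% and 11.7% in the 3 RN mice. The mean share was 3.72% ± 0.308 in RC and 11.8% ± 1.00 in RN (SD, n = 3 each). Divided by the exon length of each gene, the shares were 2.48% and 8.12%. On either scale the d1 form remained the main source of d subunit transcripts in every mouse of both groups.

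The a subunit carries the path of the protons through the membrane, and its forms direct the pump to different organelles. Atp6v0a1 (ENSMUSG00000019302), the form abundant in neurons, was at 468.0 ± 17.7 CPM in RC against 493.4 ± 25.6 CPM in RN, a log2 difference of 0.08 (SE 0.0781). Atp6v0a2 (ENSMUSG00000038023), a form of the Golgi and endosomes, was at 103.0 ± 8.21 CPM in RC against 92.5 ± 9.06 CPM in RN. Its log2 difference of -0.15 (SE 0.104) was the only negative difference among the members. In both genes the groups overlapped. Atp6v0a2 shares 9.86% of its annotated exon bases with an antisense gene, 4930404A12Rik, and whether the authors' counting used strand is not given in the sources used here.

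Tcirg1 (ENSMUSG00000001750), the a3 form of macrophage and osteoclast lysosomes, was at 32.5, 31.4 and 23.5 CPM in RC against 29.9, 42.7 and 35.1 CPM in RN. RN replicate 1 lay below RC replicates 1 and 2, so the groups overlapped. The log2 difference was 0.30 (SE 0.170), the largest among the members after Atp6v0d2. It was 0.15 without RN replicate 2 and 0.42 without RN replicate 1. With the choroid plexus covariate it was 0.66 (SE 0.253), and Tcirg1 met the thresholds of the call in none of the alternative fits. Tcirg1 supplied 4.86% ± 0.883 of the a subunit reads in RC and 5.74% ± 0.727 in RN (SD, n = 3 each), against 77.9% ± 1.79 and 79.3% ± 0.982 for Atp6v0a1. For both genes the shares overlapped between the groups. Atp6v0a2 supplied 17.2% ± 1.46 of the a subunit reads in RC against 14.9% ± 0.826 in RN, and the highest RN mouse was just below the lowest RC mouse.

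**Figure D2:**
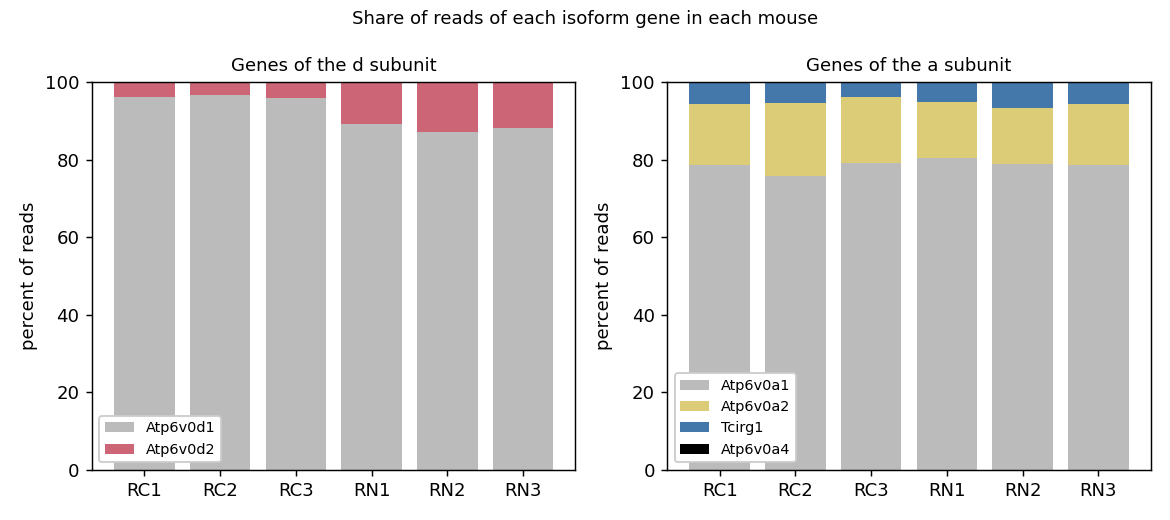
Percent of reads from each gene of the d subunit (left) and the a subunit (right), stacked to 100 for each of the 6 mice. The Atp6v0d2 band was 3.36% to 3.94% high in RC and 10.9% to 12.9% high in RN, and Atp6v0a1 supplied most a subunit reads in every mouse.

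The c and c'' subunits are small proteolipids that form the rotating ring of the V0 sector. Atp6v0c (ENSMUSG00000024121), which encodes c, was at 740.8, 817.4 and 874.5 CPM in RC against 835.4, 862.7 and 868.3 CPM in RN. The RN mice all lay inside the RC range, with a log2 difference of 0.08 (SE 0.0835) that was -0.01 with the choroid plexus covariate. The annotation holds 2 processed pseudogenes of Atp6v0c, Atp6v0c-ps1 and Atp6v0c-ps2. Neither was among the counted genes, and how shared reads were counted is not given in the sources used here. Atp6v0b (ENSMUSG00000033379), which encodes c'', was at 163.9 ± 18.7 CPM in RC against 168.7 ± 6.09 CPM in RN, with overlapping groups and a log2 difference of 0.04 (SE 0.101). Its difference was -0.05 without RC replicate 1. The antisense gene Gm12841 shares 11.8% of the exon bases of Atp6v0b. For both proteolipid genes the spread was wider among the RC mice than among the RN mice.

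In the V1 sector, Atp6v1a and Atp6v1b2 encode the A and B subunits that hydrolyse ATP. Atp6v1a (ENSMUSG00000052459) was at 447.6, 392.1 and 389.4 CPM in RC against 483.1, 444.4 and 411.6 CPM in RN, with overlapping groups and a log2 difference of 0.12 (SE 0.0951). Atp6v1b2 (ENSMUSG00000006273), the B2 form made in brain, was at 745.6, 779.6 and 789.98 CPM in RC against 864.4, 885.2 and 873.4 CPM in RN. Every RN mouse was above every RC mouse, though the difference was small, at 0.18 on the log2 scale (SE 0.0695), and it lay between 0.16 and 0.20 in the alternative fits. Atp6v1h (ENSMUSG00000033793), the regulatory H subunit that couples the sectors, was at 165.1, 156.6 and 176.4 CPM in RC against 182.4, 187.2 and 176.7 CPM in RN. The lowest RN mouse was only just above the highest RC mouse, with a log2 difference of 0.13 (SE 0.0811) that was 0.0032 with the choroid plexus covariate. Exons of Rgs20 on the opposite strand share 1.30% of the exon bases of Atp6v1h.

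Across the 10 members, 9 had a log2 difference above 0, against 50.8% of all tested genes. The median difference was 0.10, and 0.08 without Atp6v0d2, beside a median of 0.00372 over all tested genes. The neuron markers lay in the same range, with 9 of 10 above 0 and a median of 0.11. Relative to 1000 counts of those neuron markers, the ratio of the RN mean to the RC mean was 3.28 for Atp6v0d2 and between 0.828 (Atp6v0a2) and 1.13 (Tcirg1) for the other 9 members, with Atp6v0c at 0.976. On this scale the groups overlapped for each of those 9 members and not for Atp6v0d2. The groups did not overlap, with RN higher, in 3 members (Atp6v0d2, Atp6v1b2 and Atp6v1h), where this held for 8.18% of the tested genes. The summed level of the 9 members other than Atp6v0d2 was 3151 ± 103.0 CPM in RC against 3381 ± 47.5 CPM in RN (SD, n = 3 each), a mean 7.29% higher in RN. These counts belong to genes chosen with this comparison known and are given without a test. In size, the differences of the members other than Atp6v0d2 ran from -0.15 to 0.30 on the log2 scale, each short of a 2-fold difference.

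**Figure D3:**
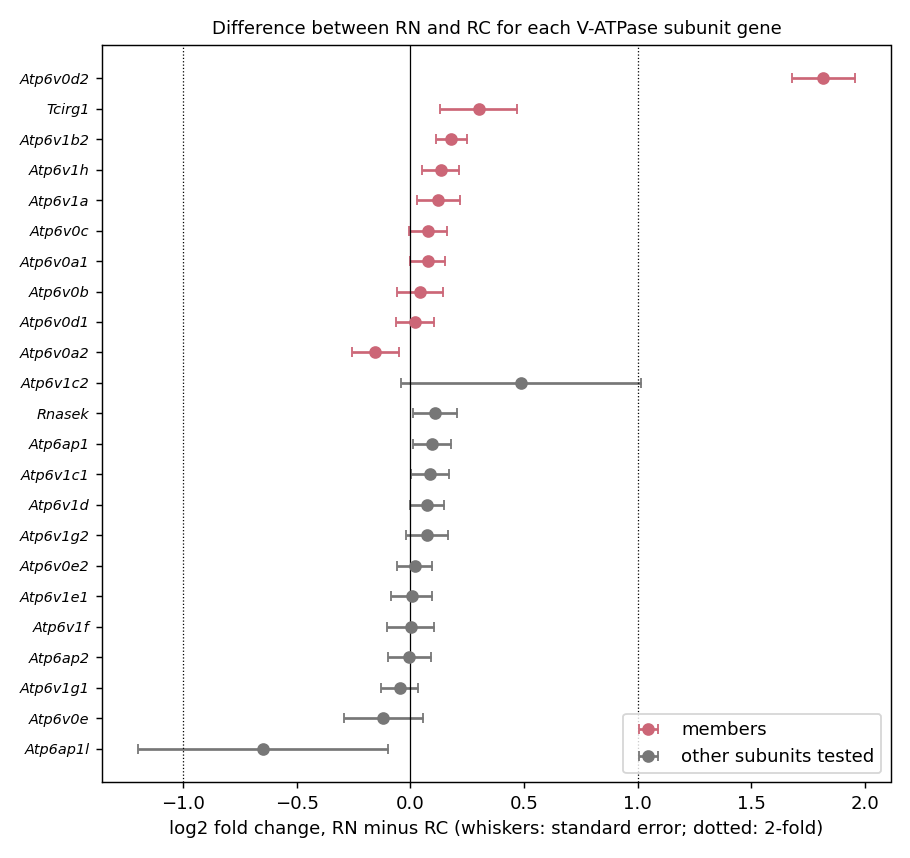
Fitted log2 fold change of RN over RC with its standard error for the 10 members (red) and the 13 other subunit genes that were tested (grey), with dotted lines at a 2-fold difference. Atp6v0d2 stood alone at 1.82, and the other members lay between -0.15 and 0.30.

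The subunits were far from equally abundant when the level was expressed per kilobase of annotated exon. In RC, Atp6v0c led with 239.6 ± 19.8 CPM per kilobase, followed by Atp6v1b2 with 145.5 ± 4.37 and Atp6v0d1 with 127.4 ± 9.90 (SD, n = 3 each). Atp6v0b, Atp6v0a1 and Atp6v1a came next at 79.9, 71.4 and 67.8 CPM per kilobase, and these neighbours overlapped between mice. Atp6v1h and Atp6v0a2 followed at 17.0 and 15.3, also overlapping. Tcirg1, at 6.33 ± 1.06 CPM per kilobase, and Atp6v0d2, at 3.25 ± 0.369, were the lowest and did not overlap with each other. In RN the order was the same except at its end, where Atp6v0d2, at 11.4 ± 1.04 CPM per kilobase, lay above Tcirg1, at 7.80 ± 1.41, with no overlap between the mice. Per kilobase of coding sequence, Atp6v0d1 moved from rank 3 to rank 5 in RC, while Tcirg1 and Atp6v0d2 kept ranks 9 and 10 in RC and exchanged them in RN. In RN the mice also overlapped between Atp6v0d2 and Atp6v0a2 on the exon scale. In both groups the forms known from macrophages were thus the lowest of the 10 genes by mean.

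**Figure D4:**
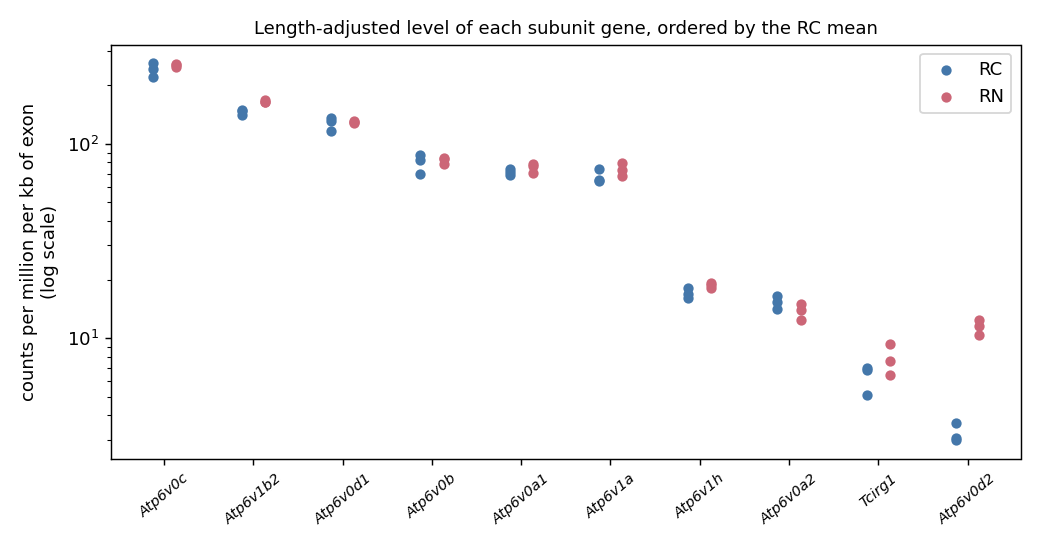
Level of each member per kilobase of exon, in CPM on a log axis, for each RC (blue) and RN (red) mouse, with genes ordered by the RC mean. Means in RC ran from 239.6 for Atp6v0c down to 3.25 for Atp6v0d2, which lay above Tcirg1 only in RN.

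The letters CACGTG, found near the start of many lysosomal genes, are the core of the element read by the MiT/TFE family of transcription factors. Promoter windows of 250 bases before to 50 bases after the start were available in RefSeq (GRCm38.p6) for 6 of the 10 members, and 3 of these 6 held CACGTG, which reads the same on both strands. Of the other pump subunits 1 of 13 with a window held it, and over all 27025 genes with a window 8.09% did. The sites are shown, 5′ to 3′ on the strand of the gene with the motif in capitals, because they are a sequence feature by which these members can be compared.
Atp6v0b, chr4:117887351-117887374, minus strand: cgcgggggtCACGTGgggtcggcg
Atp6v0b, chr4:117887333-117887356, minus strand: tcggcgcatCACGTGcgccggtca
Atp6v0d1, chr8:105566053-105566076, minus strand: tactgcggtCACGTGagacgcggt
Atp6v1a, chr16:44139376-44139399, minus strand: tttttaaatCACGTGataggctta
The windows of Atp6v0a1, Atp6v0c and Tcirg1 did not contain these letters, and Atp6v0d2, Atp6v0a2, Atp6v1b2 and Atp6v1h were not in the table. A match describes the letters only. The 3 genes that held the motif had log2 differences of 0.04, 0.02 and 0.12 between RN and RC. The factors themselves, Mitf, Tfeb, Tfe3 and Tfec, were all tested, and none was called by edgeR's quasi-likelihood test or by DESeq2, nor had an unadjusted p under 0.05 in edgeR. Tfeb was at 19.8 ± 3.51 CPM in RC against 15.3 ± 2.46 CPM in RN, a log2 ratio of -0.37 (SE 0.179, edgeR adjusted p = 0.489). Every RN mouse was below every RC mouse for Tfeb, where this held for 8.12% of the tested genes. Tfec, the form best known from macrophages, had 13 to 19 counts in RC against 10 to 32 in RN, with overlap.

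The remaining subunits, which complete the stalks and the accessory parts of the pump, were tested in the same fit. Of 17 such genes 13 passed the filter, and edgeR's quasi-likelihood test called 0 of them, with 0 at an unadjusted p under 0.05 and 0 called by DESeq2. For all 13 the groups overlapped, and their median log2 ratio (the fitted log2 fold change of RN over RC) was 0.02. Atp6ap1, an accessory subunit needed for assembly, was at 435.2 ± 13.9 CPM in RC against 464.8 ± 33.1 CPM in RN, a log2 ratio of 0.09 (SE 0.0822, edgeR adjusted p = 0.746). Atp6v1g2, the neuronal form of the G subunit in the peripheral stalk, had a log2 ratio of 0.07 (SE 0.0942, edgeR adjusted p = 0.848). Atp6ap1l and Atp6v1c2 had the widest estimates, -0.65 (SE 0.550) and 0.49 (SE 0.527), from at most 56 and 28 counts in a mouse. Among 12 tested assembly factors and regulators, which include the RAVE-like proteins Dmxl1, Dmxl2, Wdr7 and Rogdi, 0 were called by either tool and 0 had an unadjusted p under 0.05 in edgeR. The log2 ratio was above 0 in 9 of the 12, with a median of 0.06. Rogdi, with the smallest p of the 12, had a log2 ratio of -0.14 (SE 0.0956, edgeR adjusted p = 0.642).

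Lysosomal genes, whose products work in the acid made by the pump, were mostly a little higher in RN without passing the call. Of 35 tested hydrolases, membrane proteins and activators, edgeR and DESeq2 called 0 at the 2-fold threshold, while 11 had an unadjusted p under 0.05 in edgeR, all higher in RN, against 5.44% of all tested genes. The log2 ratio was above 0 in 29 of the 35, with a median of 0.18. The list was chosen with earlier results of these data known, so these counts are a description. Ctsl, a cysteine protease, was at 160.9 ± 14.8 CPM in RC against 274.8 ± 64.3 CPM in RN, a log2 ratio of 0.77 (SE 0.165, edgeR adjusted p = 0.126). Gaa, the acid glucosidase of glycogen breakdown, had a log2 ratio of 0.49 (SE 0.105) with the same adjusted p. Ctsb, another cysteine protease, had a log2 ratio of 0.49 (SE 0.126, edgeR adjusted p = 0.175). All 3 genes were higher in each RN mouse than in each RC mouse. This held for 6 of the 35 genes, against 8.18% of all tested genes. Without a fold threshold DESeq2's adjusted p passed 0.05 for 4 genes of the list, and no share over all genes was counted at that level. The 10 channels and exchangers of endosomes and lysosomes gave 0 calls in either tool and 0 genes at an unadjusted p under 0.05. Clcn7, the chloride-proton exchanger of lysosomes, was at 73.8 ± 4.72 CPM in RC against 82.7 ± 5.90 CPM in RN (edgeR adjusted p = 0.568).

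Because the d2 form is known from osteoclasts and from macrophages that fuse, 12 genes of that programme were examined, of which 9 were tested. The log2 ratio was above 0 in 4 of the 9, with a median of -0.04. EdgeR called 0 of them, 2 had an unadjusted p under 0.05, and DESeq2 called 2, Acp5 and Calcr, where it called 1.15% of the genes it tested. Acp5, tartrate-resistant acid phosphatase, had 237, 166 and 170 counts in RC against 364, 701 and 534 in RN. All RN mice were above all RC mice, with a log2 ratio of 1.43 (SE 0.222), where edgeR gave an adjusted p = 0.0666 and DESeq2 an adjusted p = 3.82e-07. EdgeR called Acp5 without a filter on low counts and without RN replicate 1. Calcr, the calcitonin receptor, which is also made by hypothalamic neurons, had 93, 43 and 25 counts in RC against 173, 180 and 301 in RN, a log2 ratio of 1.99 (SE 0.433, edgeR adjusted p = 0.129). The hypothalamic markers were also higher in RN, and their part in the value of Calcr was not tested. Dcstamp, which is needed for fusion, had 4 to 9 counts in RC against 10 to 18 in RN, low counts that did not overlap. In 3 of the 9 tested genes every RN mouse was above every RC mouse, where this held for 8.18% of all tested genes. Ctsk and Mmp9, proteases by which osteoclasts dissolve bone matrix, overlapped between the groups, with log2 ratios of -0.04 and -0.53. Ocstamp, Oscar and Tm4sf19 had at most 17 counts in any mouse and were not tested.

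Markers of phagocytic macrophages were also at higher levels in the RN mice. Their summed level over 8 genes was 745.4, 1009 and 799.7 CPM in RC against 1516, 2742 and 2025 CPM in RN, and none was at 0. Within RN, replicate 2 was the highest and replicate 1 the lowest for these markers and for Atp6v0d2. Within RC, the mouse with the highest marker level had the lowest Atp6v0d2, at 8.13 CPM against 8.36 CPM in RC replicate 1. An order among 3 mice cannot show whether the levels follow each other. This list, like the other gene lists here, was chosen with earlier results of these data known, so its counts are a description. Every RN mouse was above every RC mouse in 6 genes, which held for 8.18% of all tested genes. All 8 genes had a log2 ratio above 0. EdgeR called 0 of them, 7 had an unadjusted p under 0.05 (5.44% of all tested genes were higher at that level) and DESeq2 called 4 (1.15% over the genes it tested). Gpnmb, a glycoprotein of lipid-laden macrophages, was at 424.2 ± 79.4 CPM in RC against 1111 ± 294.7 CPM in RN, a log2 ratio of 1.39 (SE 0.202, edgeR adjusted p = 0.0630), and Clec7a, the receptor dectin-1, had a log2 ratio of 1.04 (SE 0.161, edgeR adjusted p = 0.0666).
Relative to 1000 counts of these 8 markers, Atp6v0d2 had 11.2, 8.06 and 12.5 counts in RC against 18.6, 12.3 and 15.4 in RN. These values overlapped between the groups, with a ratio of means of 1.46, while the CPM of Atp6v0d2 did not overlap.

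General microglia and macrophage markers were less separated between the groups. Over 15 genes the summed level was 2132 to 2335 CPM in RC against 2012 to 2929 CPM in RN, none was at 0, and RN replicate 1 lay below all RC mice. EdgeR and DESeq2 called 0 of the 15 at the 2-fold threshold. The log2 ratio was above 0 in 10 of the 15, with a median of 0.26 and a lowest value of -0.18. In edgeR 4 had an unadjusted p under 0.05, all higher in RN, where 5.44% of all tested genes were higher at that level. Without a fold threshold DESeq2's adjusted p passed 0.05 for 2 genes of the list, and no share over all genes was counted at that level. Tyrobp, an adaptor of microglial receptors, and Cd68, a lysosomal membrane protein, had log2 ratios of 0.41 (SE 0.105, edgeR adjusted p = 0.173) and 0.60 (SE 0.175, edgeR adjusted p = 0.208). Relative to 1000 counts of these 15 markers, Atp6v0d2 had 3.79, 3.48 and 4.68 counts in RC against 14.0, 11.5 and 11.1 in RN, which did not overlap, with a ratio of means of 3.06. Tcirg1 on the same scale had 14.7, 13.5 and 11.0 counts in RC against 14.8, 14.6 and 12.4 in RN, with overlap. How much of the Atp6v0d2 difference followed the number or state of macrophages was not tested.

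**Figure D5:**
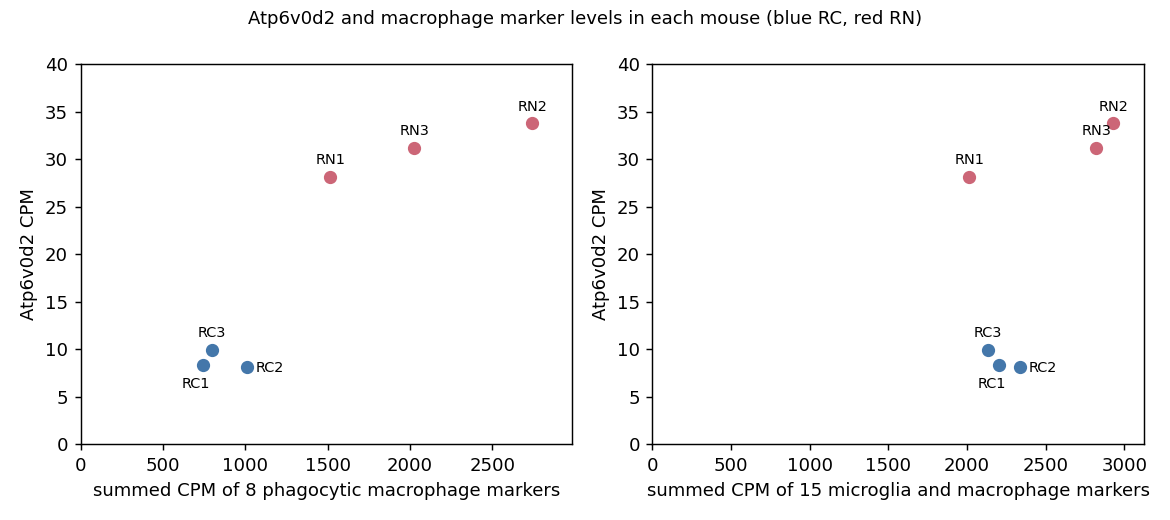
Atp6v0d2 in CPM against the summed level of 8 phagocytic macrophage markers (left) and 15 microglia and macrophage markers (right), 1 point for each mouse, axes from 0. The RN mice lay at 1516 CPM or more of phagocytic markers and the RC mice at 1009 or less, while the ranges of the general markers overlapped.

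The other cell types of the tissue gave the following levels beside those of the pump. The 10 neuron markers summed to 4697 to 5814 CPM in RC and to 5452 to 5760 CPM in RN, and edgeR and DESeq2 called 0 of them, with 0 at an unadjusted p under 0.05. Their log2 ratio was above 0 in 9 of 10, with the median of 0.11 given above. Of all tested genes, 6.33% were lower at an unadjusted p under 0.05, and DESeq2 called 1.15% of the genes it tested, which are the shares to set beside the counts that follow. Of 8 astrocyte markers, 0 were called by either tool, 0 had a log2 ratio above 0 and 5 were lower at an unadjusted p under 0.05. In 6 of the 8 every RN mouse was below every RC mouse, where this held for 8.12% of the tested genes. The astrocyte markers summed to 5941 to 7630 CPM in RC against 4088 to 5259 CPM in RN. The 7 oligodendrocyte markers summed to 11761 to 15226 CPM in RC and to 9433 to 12912 CPM in RN, with 0 calls in either tool and 1 gene lower at an unadjusted p under 0.05. The 6 endothelial markers were at 286.1 to 329.8 CPM in RC against 199.8 to 257.7 CPM in RN, with 0 calls and 3 genes lower at an unadjusted p under 0.05. The 5 ependymal markers summed to 92.0 to 103.9 CPM in RC and to 44.0 to 60.4 CPM in RN. EdgeR called 0 of the 5, 4 were lower at an unadjusted p under 0.05 and DESeq2 called 1. Without a fold threshold DESeq2's adjusted p passed 0.05 for 4 astrocyte, 0 oligodendrocyte, 3 endothelial and 4 ependymal markers, all lower in RN. No share over all genes was counted at that level. Of the choroid plexus markers 9 were lower at an unadjusted p under 0.05, edgeR called 0 and DESeq2 8. Of the 4 tested hypothalamic markers 2 were higher at an unadjusted p under 0.05, edgeR called 0 and DESeq2 1. Of the 5 thalamic markers neither tool called any and 0 had an unadjusted p under 0.05, with a median log2 ratio of -0.53. The part of these tissues in the member levels was not tested. The choroid plexus covariate given above cannot test it, because its score did not overlap between the groups.

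The genes whose values over the 6 mice lay nearest to those of Atp6v0d2 were Atf3, Apoc2, Piezo2, Hmcn2, Rnase1 and Fndc9. Nearness was the root mean square difference between log2 CPM values, each gene centred on its own mean, over 14325 genes with a mean of at least 1 CPM, and it ran from 0.185 for Atf3 to 0.248 for Fndc9. Atf3, a stress-induced transcription factor, was at 11.6, 10.9 and 15.4 CPM in RC against 29.0, 39.2 and 38.9 CPM in RN. Apoc2, an apolipoprotein that activates lipoprotein lipase, was at 2.95 ± 0.712 CPM in RC against 8.68 ± 0.920 CPM in RN. Piezo2, a mechanically gated channel, was at 4.82 ± 0.438 CPM in RC against 15.6 ± 5.28 CPM in RN, with RN replicate 2 the highest. As these genes were picked for the same difference between the groups, their values are a description. The other tested pump subunits had log2 ratios of at most 0.49, too small a difference for them to be among these genes.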

How the data were processed

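Bulk RNA-seq of thalamus from 3 RC and 3 RN mice was used, grouped by the labels. The authors deposited whole-number read counts per gene without normalization, with one column per mouse. The submitters' processing notes name fastp 0.18.0, FastQC, HISAT2 2.2.4, RSEM 1.2.19 and GRCm39. The annotation, the counting options and the use of strand are not given in the sources used here.

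In R 4.3.3, edgeR 4.0.16 was run on the whole table: filterByExpr with a minimum count of 10, TMM scaling, and the quasi-likelihood test with group as the only term. P-values were adjusted by Benjamini-Hochberg across 14956 genes. DESeq2 1.42.0, which the methods name, was an alternative. The scripts were tested on simulated data. CPM (the counts-per-million scale) used TMM-scaled totals, and log2 CPM used a prior count of 2. Exon and coding lengths came from GENCODE M21 (GRCm38), with exons of all transcripts merged, for 14936 of the tested genes. Coordinates are printed only for RefSeq promoter sites.

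The members and gene lists were chosen with earlier results of these data known. All 170 list entries matched a gene. The genes named are the members, Neurod1, the other subunits, up to 3 genes in each direction per pathway list and up to 2 per marker list by smallest p, and the 6 genes nearest to Atp6v0d2. Dcstamp, Ctsk, Mmp9, Ocstamp, Oscar, Tm4sf19, Clcn7, Tfeb and Tfec, and genes named as list contents, were named for their roles, after their values were seen.

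The labels number the mice 1 to 3 in both groups. Deviations from the group means of same-numbered mice correlated at 0.173, 0.120 and 0.209 across genes for replicates 1, 2 and 3, so a fit with the replicate number as a block is given where it changes a call or a count. RC replicate 1 and RN replicate 2 correlated at 0.156. Chi-square values between pairs of libraries, per degree of freedom, were 15.8 to 42.7, far above sampling noise, and all 6 libraries were counted as separate mice.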

Additional observations from a re-analysis of the deposited data

How the results depend on the processing

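The alternatives were DESeq2, edgeR with the size factors of DESeq2, an unfiltered table, a stricter filter of 10 counts or more per mouse, edgeR without its legacy option, no fold threshold, the replicate number as a block, the choroid plexus score as a covariate, and each mouse left out. The number of called genes, 11 over all tested genes, was 186 with DESeq2, 43 without a filter, 22 with the replicate block, 1 with the choroid plexus covariate, and between 3 and 30 with a mouse left out (3 without RN replicate 2, 4 without RC replicate 1 or RC replicate 2, 7 without RN replicate 3, 23 without RC replicate 3 and 30 without RN replicate 1). Among the assembly, lysosome and osteoclast genes, where edgeR called 0, DESeq2 called 2, the fit without a filter 1, and the fits with a mouse left out 0 to 1. The other V-ATPase subunits gave 0 calls in every alternative. The log2 difference of Atp6v0d2 was 1.61 with the choroid plexus covariate and 1.74 to 1.91 with a mouse left out. The median difference of the members was 0.09 to 0.12 with a mouse left out and 0.05 with that covariate. The share of Atp6v0d2 in the d subunit reads, 3.72% in RC and 11.8% in RN, was 2.48% and 8.12% per exon length and ran from 3.61% to 3.89% and from 11.3% to 12.3% with a mouse left out. Beside the count of called genes, the replicate block changed no call of a member or of a listed subunit, assembly or lysosome gene. With the choroid plexus covariate Atp6v0d2 lost its call. The cause of these changes was not tested.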

Other observations

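Forms of the pump that are restricted to kidney, other acid-secreting epithelia or testis were close to the counting floor in this tissue. Atp6v1b1, the B1 form of epithelial cells, had 1 to 5 counts in each RC mouse and 0 to 3 in each RN mouse. Atp6v0a4, the a4 form of the kidney, had 3 to 8 counts in RC and 3 to 9 in RN. Atp6v1g3 had at most 2 counts and Atp6v1e2, a testis form, at most 5. None of these 4 genes passed the filter on low counts, and with counts this low a difference between the groups was not detectable at this depth. Of the alternative forms that the brain does use, Atp6v1g2 supplied 74.3% ± 1.40 of the G subunit reads in RC and 75.9% ± 1.13 in RN (SD, n = 3 each), and Atp6v0e2 supplied 89.0% ± 1.77 and 89.96% ± 1.90 of the e subunit reads. For both genes the shares overlapped between the groups.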
